A study of Homo sapiens with 15 samples.

Results

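Mitochondrial ribosomal proteins were taken as every gene of the deposited table whose symbol is MRPL or MRPS followed by a number, with an optional letter A, B or C. The rule found 78 of 60605 genes, 49 with an MRPL name and 29 with an MRPS name. All 78 had an FPKM (counts per kilobase of exon and scaled to the library's total count) of at least 1 in at least 1 library, and so did 21206 of all genes, which are the genes tested below. Of the 78, 77 reached this level in at least 6 of 15 libraries. RNA was sequenced from bulk cultures of H1, a wild-type human embryonic stem cell line, in 1 course of differentiation. All cultures shared CHIR99021, an activator of WNT signalling, on day 0 and insulin on day 1, which made mesendoderm progenitors. Days 0, 1 and 2 have 1 library each and precede the split into arms. NP-ctrl cells were not passaged and received no further inducer. NP-IWP2 cells stayed in place and were given the WNT secretion inhibitor IWP2 between days 2 and 4. Passaged cells were lifted, diluted into new wells on day 2 and given no WNT inhibitor, and the ROCK inhibitor Y27632 was part of the study's replating protocol. Every arm was sampled once on days 3, 5, 7 and 10. No group has a replicate, all cells are of 1 line, and the only repetition is over days. The comparisons ask whether this machinery rises as cells differentiate towards cardiomyocytes and how the arms differ on each day.

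Mitochondria keep their own ribosome, the mitoribosome, which makes the membrane-embedded subunits of the respiratory chain that the mitochondrial genome encodes. Its RNAs come from that genome, whereas all its proteins are encoded in the nucleus, made in the cytosol and imported. MRPL proteins form the large subunit, which joins amino acids and holds the exit tunnel, and MRPS proteins form the small subunit, which reads the messenger RNA. Names do not always give the place: MRPS18A and MRPS30 sit in the large subunit, and MRPS36, also called KGD4, is known as a part of the oxoglutarate dehydrogenase complex of the citric acid cycle. Cardiomyocytes are rich in mitochondria.

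The members differed widely in level per length. The median of their mean FPKM over 15 libraries was 14.6, against 2.83 for all genes that passed. MRPL41, a large-subunit protein found only in mitochondrial ribosomes, was the highest with a mean of 69.9 FPKM, followed by the small-subunit proteins MRPS34 at 58.4 and MRPS26 at 46.5. The lowest were MRPL53 at 0.571, MRPL46 at 1.48 and MRPS18C at 3.27. MRPL53 rests on 1 to 10 counts per library. The level of 56 members ranged by at least 1 on the log2(FPKM + 1) scale over the libraries, with a median range of 1.19, and MRPL12 (3.34), MRPS34 (2.75) and MRPL23 (2.40) had the largest ranges.

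Promoters of 69 members were matched by symbol to RefSeq sequences on GRCh38.p14, each 250 bases before to 50 bases after the start of the gene. Short motifs known from promoters of nuclear genes for mitochondrial proteins were searched on both strands. AAGATGGCG, the core bound by YY1, was in 13 of 69 members (18.8%) and in 3.54% of the 11980 promoters of this length matched to genes that passed the filter. CCGGAAGT, a site of ETS factors such as GABPA, was in 11 members (15.9%) and 7.99% of all promoters. GCGCATGCG, the core bound by NRF1, was in 3 members (4.35%) and 3.44% of all promoters. At least 1 of the 3 was in 24 members (34.8%) and 14.0% of all promoters. In 10 members AAGATGGCG was read in the sense of the gene within the 50 bases from the start, which held for 14.5% of members and 2.27% of all promoters. These are counts of letters, not of bound sites, and a window without a match says nothing about a factor. The promoters of the MRPS18 paralogs and of MRPS34 are given below because they show each motif, in capitals, with the rest in lower case.
MRPS18A: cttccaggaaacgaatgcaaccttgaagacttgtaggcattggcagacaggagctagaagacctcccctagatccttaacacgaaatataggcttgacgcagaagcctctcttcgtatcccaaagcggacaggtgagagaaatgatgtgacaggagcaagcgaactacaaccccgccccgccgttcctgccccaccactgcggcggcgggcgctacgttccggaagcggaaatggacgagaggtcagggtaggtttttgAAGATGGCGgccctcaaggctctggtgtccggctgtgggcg
MRPS18B: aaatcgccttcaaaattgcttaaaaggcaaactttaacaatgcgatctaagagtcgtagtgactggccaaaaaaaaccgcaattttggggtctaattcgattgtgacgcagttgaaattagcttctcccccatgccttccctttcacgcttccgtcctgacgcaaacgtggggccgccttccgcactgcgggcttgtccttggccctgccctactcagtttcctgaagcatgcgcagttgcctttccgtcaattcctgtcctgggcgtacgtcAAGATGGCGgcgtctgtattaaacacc
MRPS18C: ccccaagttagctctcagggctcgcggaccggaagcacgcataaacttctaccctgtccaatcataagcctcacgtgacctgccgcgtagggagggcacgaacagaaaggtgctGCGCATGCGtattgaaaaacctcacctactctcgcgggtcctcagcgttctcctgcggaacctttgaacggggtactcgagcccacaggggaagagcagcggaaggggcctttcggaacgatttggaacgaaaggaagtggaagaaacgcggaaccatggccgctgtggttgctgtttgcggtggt
MRPS34: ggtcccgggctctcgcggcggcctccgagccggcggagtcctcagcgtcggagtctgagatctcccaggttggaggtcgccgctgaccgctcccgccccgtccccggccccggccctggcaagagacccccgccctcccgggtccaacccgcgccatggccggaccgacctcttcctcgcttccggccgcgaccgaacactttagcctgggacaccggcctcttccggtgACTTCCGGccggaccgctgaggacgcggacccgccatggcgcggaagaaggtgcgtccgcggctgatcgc
They lie at chr6:43687742-43688041 (minus strand), chr6:30617590-30617889 (plus strand), chr4:83455808-83456107 (plus strand) and chr16:1773085-1773384 (minus strand), and each is written 5′ to 3′ in the sense of its gene. MRPS18A and MRPS18B hold the YY1 core, 9 and 23 bases after the start base. MRPS18C holds the NRF1 core 136 bases before it, and MRPS34 the ETS site 20 bases before it on the opposite strand.

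Before the arms split, levels of the members were highest on day 0 and lower by day 2. Together they took 0.466% of all counts on day 0 (Wilson 95% interval 0.463 to 0.469%), 0.422% on day 1 (0.420 to 0.425%) and 0.343% on day 2 (0.340 to 0.345%). These intervals cover counting error only. From day 0 to day 2, the median difference in log2(FPKM + 1) was -0.44 over the members and 0.01 over all genes. 31 members were lower by at least 0.5 and 0 were higher by that much, where 14.9% of all genes were lower and 18.7% higher to that extent. MRPS12, at the decoding centre of the small subunit, went from 41.2 to 17.6 FPKM, a ratio of 0.427 (95% interval 0.387 to 0.471). MRPL34 went from 33.6 to 15.9 FPKM, a ratio of 0.473 (95% interval 0.422 to 0.529). The largest differences the other way were in MRPL40, from 7.76 to 10.7 FPKM, and in MRPL17, from 18.8 to 23.3 FPKM. Over all 15 libraries, 37 of 78 members had their highest level on day 0, against 11.6% of all genes. With 1 library a day these are descriptions and carry no test.

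After day 2 the arms parted. The passaged day 3 library stood apart, with 1.53% of its counts from the mitochondrial genome against 3.71 to 10.3% in the other libraries. In passaged cells the members took 0.324, 0.298, 0.324 and 0.325% of all counts on days 3, 5, 7 and 10. In NP-IWP2 cells the shares were 0.303, 0.271, 0.299 and 0.272%. In NP-ctrl cells they were 0.361, 0.254, 0.237 and 0.224%. NP-ctrl was thus the highest arm on day 3 and the lowest on days 5, 7 and 10, while passaged was the highest from day 5 on. The day 10 share over that of day 3 was 1.00 in passaged cells (exact 95% interval of the counts 0.991 to 1.02), 0.897 in NP-IWP2 (0.885 to 0.909) and 0.620 in NP-ctrl (0.611 to 0.628). The same ratio for passaged cells was 1.10 with the genes of the mitochondrial genome left out of the total, and 0.806 on summed TPM, so its direction depends on the scaling. No arm on day 10 reached the share of day 0. In single members, 19 of 78 were higher on day 10 in passaged cells than on day 0, 12 in NP-IWP2 cells and 3 in NP-ctrl cells. The share of all genes higher on day 10 than on day 0 was not counted, so these counts have no background. In bulk RNA, fewer cells of a type and less RNA per cell cannot be told apart.

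**Figure D1:**
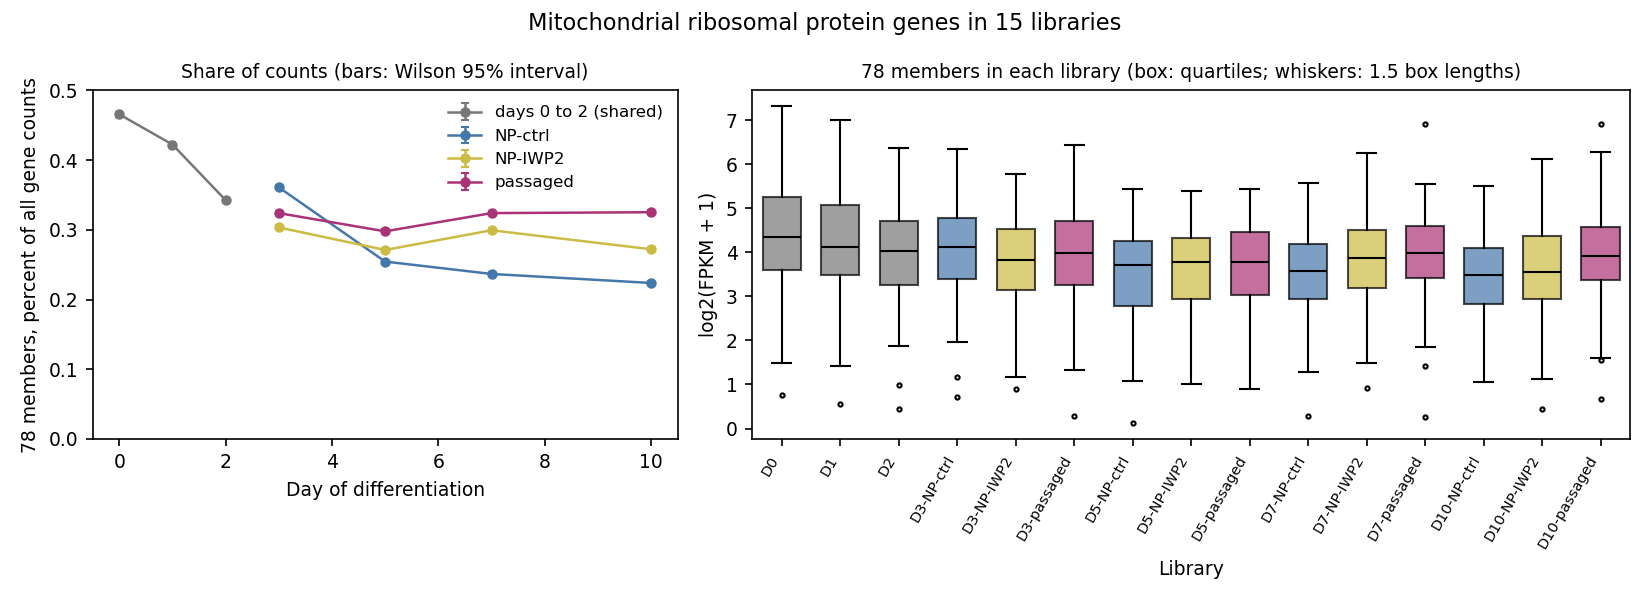
Left, summed counts of the 78 members as a percent of all gene counts against day, 1 point per library with Wilson 95% intervals. Right, boxes of log2(FPKM + 1) of the 78 members in each of 15 libraries. The share falls from 0.466% on day 0 to 0.343% on day 2 and on day 10 lies at 0.325% in passaged, 0.272% in NP-IWP2 and 0.224% in NP-ctrl cells.

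A line over days 3 to 10 was fitted in each arm with edgeR's quasi-likelihood test on the counts (12 libraries, p-values adjusted over all 21206 genes), and its size is given as the fitted log2 change from day 3 to day 10. In NP-ctrl the median over the members was -0.63, and 71 of 78 were below 0. In NP-IWP2 it was -0.07, with 43 below 0. In passaged cells it was 0.36, with 21 below 0. The NP-ctrl median depended on the first and last libraries of that arm, and the medians of the other arms on their last library. Without its day 3 library the NP-ctrl median was -0.25, and without its day 10 library -1.17. The NP-IWP2 median turned to 0.21, with 28 below 0, without that arm's day 10 library and lay between -0.21 and -0.11 without its day 3, 5 or 7 library. The passaged median was 0.17 without that arm's day 10 library and 0.37 without its day 3 library. The median of all genes was 0.02 in NP-ctrl and 0 in the other arms to 2 decimals, and with library totals in place of TMM scaling, the medians in passaged cells were 0.11 for the members and -0.23 for all genes.

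At an adjusted p under 0.05 in edgeR, 0 members rose and 9 fell in NP-ctrl, where 2.6% of all genes rose and 3.6% fell (at an unadjusted p under 0.05, 0 members were higher and 32 lower, 41% against 24.9% of all genes in either direction). In NP-IWP2, 2 members rose and 2 fell, against 5.14% and 6.35% of all genes (unadjusted, 9 higher and 14 lower, 29.5% against 28.5%). In passaged cells, 10 members rose and 2 fell, against 7.57% and 8.3% of all genes (unadjusted, 15 higher and 4 lower, 24.4% against 30.7%). With library totals in place of TMM scaling, 5 rose and 4 fell in passaged cells and 2 rose and 4 fell in NP-IWP2. Under TMM, the share of members that rose in passaged cells and that of members that fell in NP-ctrl were thus above the share of all genes, and the shares in NP-IWP2 were below it. In all, 19 members (24.4%) passed in at least 1 arm, against 22.1% of all genes, a share near the background. Of these, 14 passed in 1 arm, 4 in 2 and MRPL11 in all 3, where 13.2, 6.55 and 2.44% of all genes did. DESeq2 gave 13 calls in passaged, 9 in NP-IWP2 and 17 in NP-ctrl cells, and limma on log2(FPKM + 1) gave 9, 7 and 9. For library totals, DESeq2, limma and the fits that follow, the share of all genes called was not counted. Each count of members rests on a few libraries. In NP-ctrl it was 0 without the day 3 or the day 10 library of that arm, 2 without its day 7 library, 4 without the NP-IWP2 day 5 library and 5 without NP-IWP2 day 3, NP-IWP2 day 7 or passaged day 7. In passaged cells it was 0 without the day 10 library of that arm, 1 without its day 3 library, 5 without its day 7 library and 6 without NP-ctrl day 7. In NP-IWP2 it was 0 without the day 3, day 5 or day 10 library of that arm and 2 without its day 7 library. Leaving out whole days gave 0 without day 3, 7 or 10 and 4 without day 5 in NP-ctrl, 0 without day 5, 7 or 10 and 2 without day 3 in NP-IWP2, and 2, 4, 1 and 0 without days 3, 5, 7 and 10 in passaged cells. Fitted on the libraries of 1 arm alone, the counts were 2 for passaged cells and 0 for each of the other arms. All 25 called slopes kept their direction under every alternative, and single calls held in 2 (MRPS22) to 14 (MRPL15, both in passaged cells) of the 16 fits without 1 library or 1 day.

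Of the 9 members that fell in NP-ctrl, 7 have MRPL names. MRPL12, the stalk protein of the large subunit, which is also reported to bind the mitochondrial RNA polymerase, was at 61.1, 53.4 and 31.4 FPKM on days 0, 1 and 2. On days 3, 5, 7 and 10 it was at 37.6, 13.4, 22.9 and 12.6 in passaged, 24.2, 15.6, 15.8 and 5.13 in NP-IWP2 and 34.2, 14.0, 12.1 and 5.37 in NP-ctrl cells. Every arm ended below its day 3 level, and the passaged library was the highest of the 3 on day 10. The fitted change was -2.57 ± 0.59 (SE) in NP-ctrl (edgeR adjusted p = 0.0391), and values of -1.98 ± 0.64 in NP-IWP2 (adjusted p = 0.0768) and -1.04 ± 0.57 in passaged cells (adjusted p = 0.253) did not pass. On day 10 its count in passaged cells over that in NP-ctrl gave a ratio of 2.34 (95% interval 1.78 to 3.11). MRPL12 overlaps a second protein-coding gene on the same strand, so reads there could belong to either.

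MRPL11, which lies in the region of the large subunit where translation factors bind, fell in all 3 arms. It was at 37.9, 34.5 and 23.8 FPKM on days 0, 1 and 2. On days 3, 5, 7 and 10 it was at 25.2, 17.9, 14.0 and 10.2 in passaged, 18.1, 19.3, 13.7 and 7.76 in NP-IWP2 and 27.2, 17.6, 16.2 and 8.37 in NP-ctrl cells. On day 10 all arms were between 7.76 and 10.2 FPKM. Fitted changes were -1.05 ± 0.30, -1.25 ± 0.33 and -1.65 ± 0.31 in passaged, NP-IWP2 and NP-ctrl cells (edgeR adjusted p = 0.0442, 0.0396 and 0.0228).

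MRPL23, at the mouth of the exit tunnel, was at 10.52, 8.99 and 8.52 FPKM on days 0, 1 and 2. It was at 8.77, 6.58, 4.33 and 2.28 on days 3, 5, 7 and 10 in passaged cells, 7.90, 4.31, 4.39 and 2.95 in NP-ctrl and 4.83, 4.92, 3.87 and 1.19 in NP-IWP2. It was lower on day 10 than on day 3 in every arm, and the fitted change passed the test in passaged cells, at -1.73 ± 0.50 (edgeR adjusted p = 0.0462). NP-ctrl gave -1.35 ± 0.48 (adjusted p = 0.122) and NP-IWP2 -1.94 ± 0.56 (adjusted p = 0.0535), which did not pass. Of the other large-subunit members, MRPL45, MRPL37, MRPL10, MRPL9 and MRPL44 fell in NP-ctrl, by fitted changes of -1.21 to -1.03.

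Small-subunit members that fell were MRPS34 and MRPS27. MRPS34, a protein with no bacterial counterpart whose promoter is shown above, was at 158, 128 and 81.2 FPKM on days 0, 1 and 2. On days 3, 5, 7 and 10 it was at 85.7, 38.9, 44.1 and 31.6 in passaged cells, at 53.4, 39.8, 36.0 and 23.6 in NP-IWP2 and at 68.8, 33.8, 31.1 and 22.6 in NP-ctrl. Each library from day 5 on was below every earlier one. Its fitted change in NP-ctrl was -1.54 ± 0.37 (edgeR adjusted p = 0.0446). MRPS27, an RNA-binding protein with pentatricopeptide repeats, stayed between 19.2 and 22.5 FPKM in all libraries up to day 3. On day 10 it was at 11.7 FPKM in passaged, 10.2 in NP-IWP2 and 7.88 in NP-ctrl cells. It fell in NP-ctrl, with a fitted change of -1.46 ± 0.20 and in NP-IWP2, with -0.85 ± 0.20 (edgeR adjusted p = 0.00852 and 0.0294), while -0.51 ± 0.20 in passaged cells did not pass (adjusted p = 0.115).

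**Figure D2:**
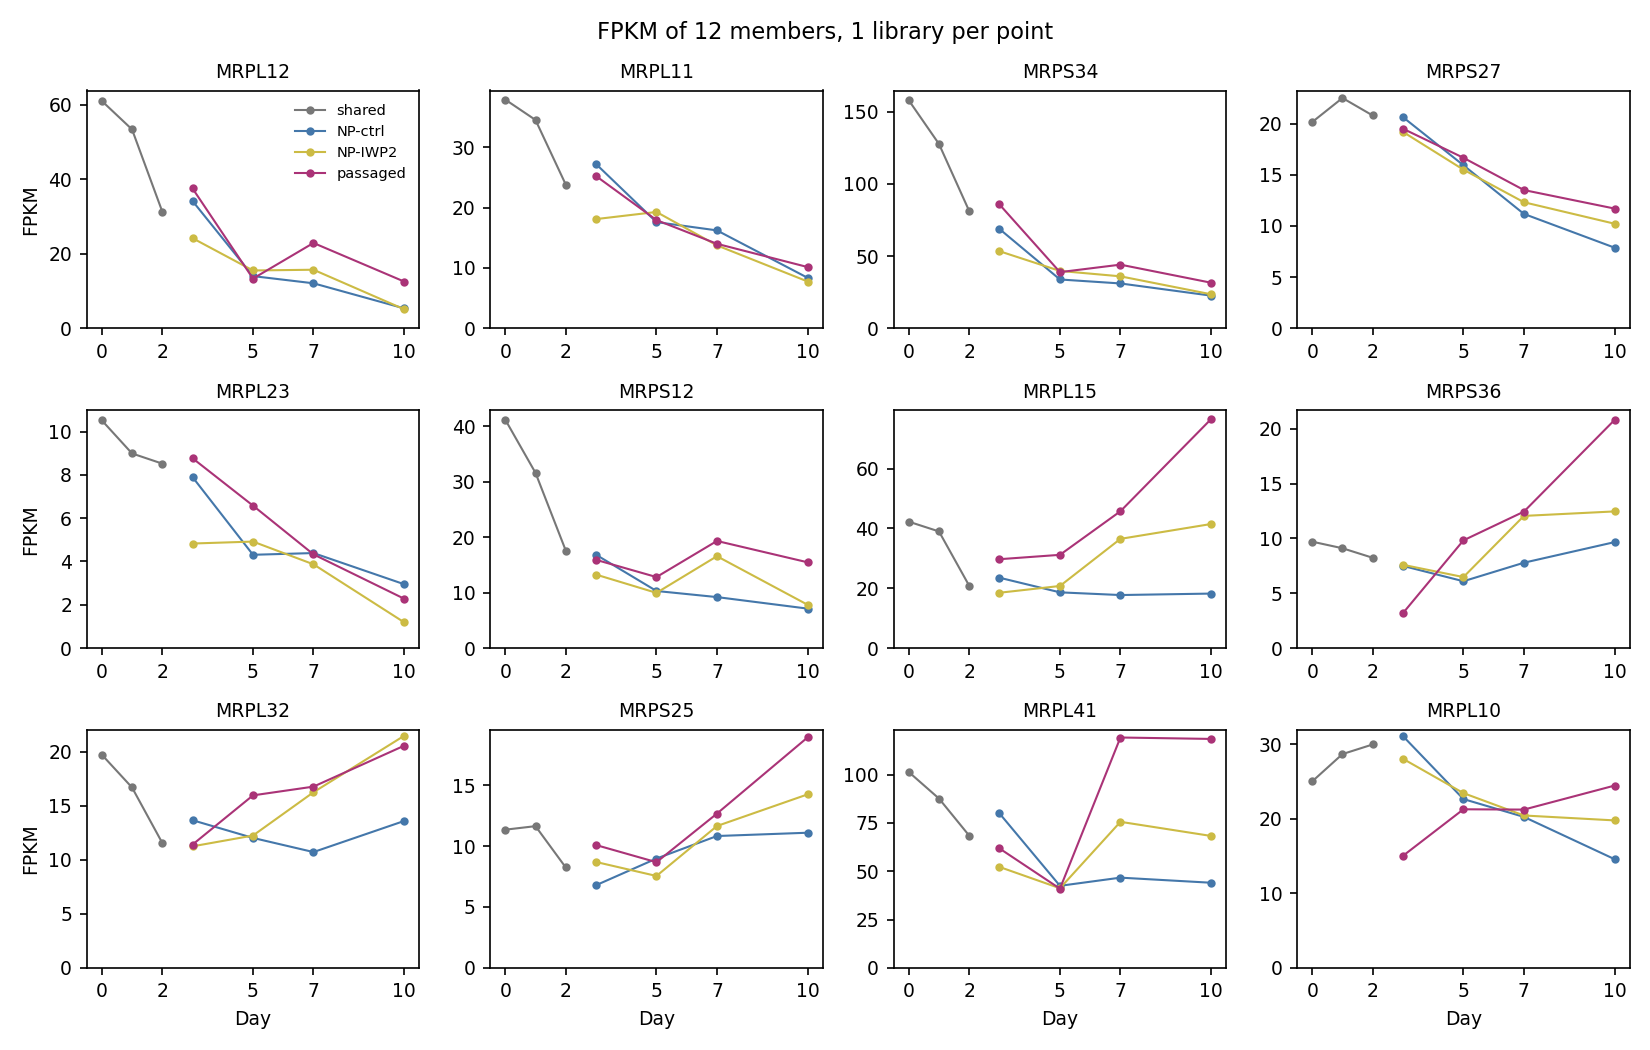
FPKM against day for 12 members, 1 library per point, with the shared libraries of days 0 to 2 in grey and the 3 arms in colour. Each vertical axis starts at 0. MRPL12, MRPL11, MRPS34, MRPS27 and MRPL23 end below their day 3 level in every arm, whereas MRPL15 ends at 76.6 FPKM in passaged, 41.5 in NP-IWP2 and 18.2 in NP-ctrl cells.

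Among the members that rose, MRPL15 kept its call in the largest number of fits. MRPL15, a core protein of the large subunit, was at 42.3, 39.0 and 20.8 FPKM on days 0, 1 and 2. In passaged cells it was at 29.7, 31.2, 45.8 and 76.6 FPKM on days 3, 5, 7 and 10, in NP-IWP2 at 18.5, 20.8, 36.5 and 41.5 and in NP-ctrl at 23.5, 18.6, 17.7 and 18.2. Passaged cells were the highest arm on all 4 days, and NP-ctrl stayed within 17.7 to 23.5 FPKM. Fitted changes were 1.68 ± 0.28 in passaged cells and 1.36 ± 0.30 in NP-IWP2 (edgeR adjusted p = 0.00614 and 0.0231), while -0.38 ± 0.29 in NP-ctrl did not pass (adjusted p = 0.438). The passaged call held in 14 of the 16 fits without 1 library or 1 day. The ratio of its shares of counts on day 10 was 4.20 (95% interval 3.79 to 4.67) for passaged over NP-ctrl and 1.85 (95% interval 1.72 to 1.98) for passaged over NP-IWP2. MRPL32, a large-subunit protein that is matured by a protease of the inner membrane, was at 19.7, 16.7 and 11.6 FPKM on days 0, 1 and 2, and on day 10 at 20.6 in passaged, 21.5 in NP-IWP2 and 13.6 in NP-ctrl cells. It rose in passaged cells (1.02 ± 0.26, edgeR adjusted p = 0.0259) and in NP-IWP2 (1.05 ± 0.25, adjusted p = 0.0299).

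Of the small-subunit names, 6 rose in passaged cells. MRPS36 had the largest fitted change, 2.67 ± 0.51 (edgeR adjusted p = 0.00962). Its FPKM was 9.71, 9.11 and 8.24 on days 0, 1 and 2, and 3.19, 9.83, 12.4 and 20.8 on days 3, 5, 7 and 10 in passaged cells. NP-IWP2 was at 7.60, 6.48, 12.1 and 12.5 and NP-ctrl at 7.50, 6.10, 7.79 and 9.67. The passaged library was thus the lowest of the arms on day 3 and the highest on day 10. MRPS25, a small-subunit protein specific to mitochondria, was at 10.1, 8.67, 12.7 and 18.9 FPKM in passaged cells, 8.69, 7.54, 11.6 and 14.2 in NP-IWP2 and 6.78, 8.97, 10.8 and 11.1 in NP-ctrl. The passaged change passed, at 1.25 ± 0.29 (edgeR adjusted p = 0.0198). MRPS33, also of the small subunit, was at 2.41, 4.06, 4.76 and 5.46 FPKM in passaged cells, with a change of 1.34 ± 0.35 (edgeR adjusted p = 0.0312). MRPS23, MRPS22 and MRPS18B rose as well, by fitted changes of 1.03 to 1.18, as did the large-subunit members MRPL35 at 1.06 ± 0.31 and MRPL10 at 0.86 ± 0.23.

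MRPL10, which anchors the stalk of the large subunit, fell in NP-ctrl and rose in passaged cells, and it is described for that after its values were seen. It was at 25.0, 28.6 and 29.9 FPKM on days 0, 1 and 2. On days 3, 5, 7 and 10 it was at 31.1, 22.6, 20.2 and 14.6 in NP-ctrl and 15.01, 21.2, 21.2 and 24.4 in passaged cells, with NP-IWP2 at 28.0, 23.4, 20.4 and 19.8. Passaged cells started lowest and ended highest. The fitted change was -1.09 ± 0.23 in NP-ctrl (edgeR adjusted p = 0.0294) and 0.86 ± 0.23 in passaged cells (adjusted p = 0.0342), and the test of the difference itself gave 1.95 ± 0.32 (adjusted p = 0.0534). Of the 16 fits without 1 library or 1 day, the call held in 9 in NP-ctrl and in 6 in passaged cells. Over all alternatives the passaged change was between 0.53 and 1.21.

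**Figure D3:**
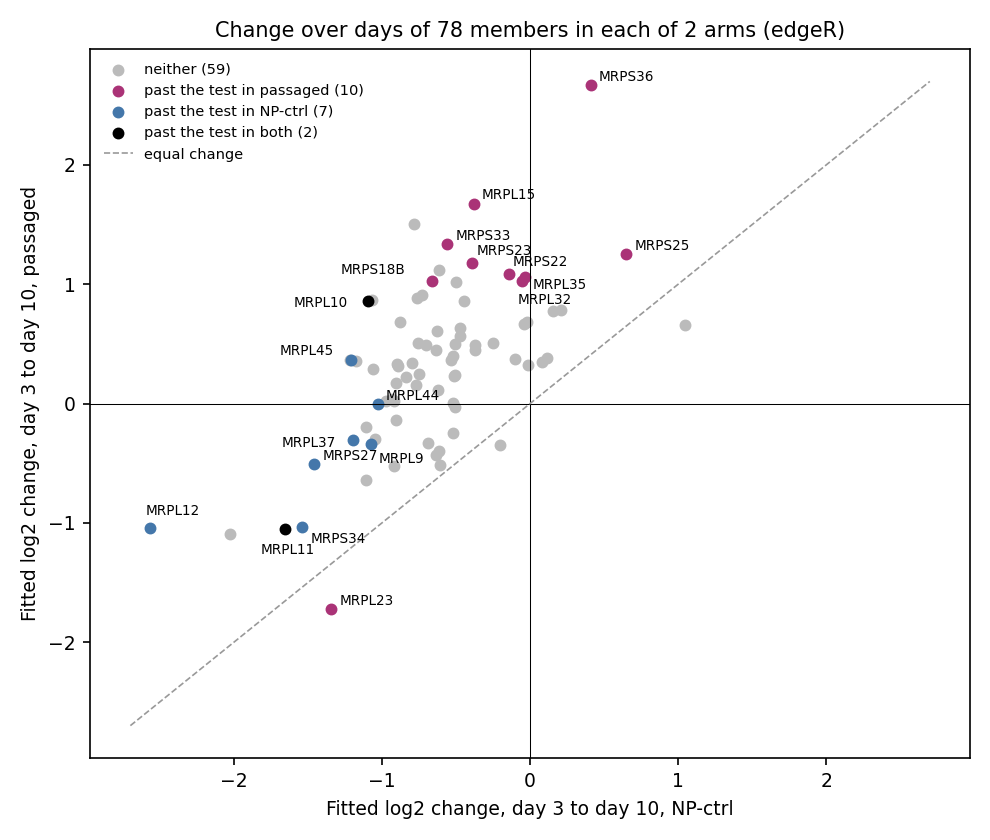
Fitted log2 change from day 3 to day 10 in passaged cells (vertical) against NP-ctrl (horizontal), 1 point per member, coloured by which edgeR test it passed, with the dashed line of equal change. 75 of 78 points lie above the dashed line, and MRPS36 at 2.67 and MRPL12 at -2.57 mark the ends.

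The arms were then compared directly, first as a mean difference over days 3 to 10 with day as a block. Passaged against NP-ctrl, the median over members was 0.30 (log2), 71 of 78 were above 0, and the median of all genes was -0.0025. In edgeR 0 members passed, against 4.4% of all genes, with 14 members (17.9%) and 19.2% of all genes at an unadjusted p under 0.05. DESeq2 called 4 and limma 0. For these tools and for the fits without a library or day, the share of all genes called was not counted. Without day 3, edgeR called 15, without the NP-ctrl day 3 library 11 and without the passaged day 3 library 2, and the median lay between 0.18 and 0.49 when a library or day was left out. The largest value was in MRPL15, 1.13 ± 0.29 (edgeR adjusted p = 0.0552). Passaged against NP-IWP2, the median was 0.23 with 72 of 78 above 0, and 0 members passed in edgeR, DESeq2 or limma, against 1.33% of all genes, with 9 (11.5%) and 12.9% of all genes at an unadjusted p under 0.05. That median was 0.13 without the passaged day 10 library. NP-IWP2 against NP-ctrl, the median was 0.07 with 52 of 78 above 0, and 0 members passed in these tools, against 0.0189% of all genes, with 0 and 4.76% of all genes at an unadjusted p under 0.05. Its direction rests on single libraries, as it was -0.03 with 45 below 0 without NP-ctrl day 7, -0.02 with 46 below 0 without NP-ctrl day 10 and 0.27 without NP-ctrl day 3. These contrasts share libraries, so they are not separate evidence.

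The difference between arms in the change over days was tested next. For passaged minus NP-ctrl the median over members was 0.94, 75 of 78 were above 0, and the median of all genes was -0.06. 0 members passed in edgeR, against 0.16% of all genes, with 32 (41%) and 15.6% of all genes at an unadjusted p under 0.05, and DESeq2 called 9 and limma 0. The median was 0.48 without NP-ctrl day 3, 1.44 without NP-ctrl day 10 and 1.13 without passaged day 3. MRPL10, MRPL15 at 2.06 ± 0.40 (edgeR adjusted p = 0.0717) and, with equal adjusted p = 0.0842, MRPL45 at 1.58 ± 0.34 and MRPS18B at 1.69 ± 0.36 came nearest, MRPL45 being singled out after its values were seen. For NP-IWP2 minus NP-ctrl the median was 0.56 with 69 above 0, and 0 members passed in edgeR, DESeq2 or limma, with 16 (20.5%) and 5.68% of all genes at an unadjusted p under 0.05 and 0 of all genes called (0%). This median was 0.22 without NP-ctrl day 3, 1.13 without NP-ctrl day 10 and 0.85 without NP-IWP2 day 10. For passaged minus NP-IWP2 the median was 0.34 with 61 above 0, 0 passed in edgeR against 0.00472% of all genes, with 6 (7.69%) and 7.59% of all genes at an unadjusted p under 0.05, and DESeq2 called 1 and limma 0. The median was 0.05 with 35 below 0 without NP-IWP2 day 10 and was 0.56 without passaged day 3. A slope that passed in passaged cells and not in NP-ctrl is therefore not shown by the main edgeR fit or limma to differ between them. With FPKM of at least 1 in 6 libraries as the filter, edgeR called 1 member, and with day as its rank 1. For DESeq2 and these alternative fits the share of all genes called was not counted. Their calls, the 9 of DESeq2 included, can therefore not be set against a background.

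Day by day, the median difference of passaged minus NP-ctrl in log2(FPKM + 1) went from -0.12 on day 3 to 0.20, 0.41 and 0.42 on days 5, 7 and 10. All genes had medians of 0.03, 0.00, -0.07 and -0.09. On the TPM scale, the sign on day 3 turned to 0.16 and the day 10 median was 0.17. On day 10, 34 members were higher by at least 0.5 and 0 lower, where 14.4% of all genes were higher and 26.2% lower, and on the TPM scale 17 were higher and 4 lower. For NP-IWP2 minus NP-ctrl the medians were -0.25, 0.10, 0.34 and 0.22 on days 3, 5, 7 and 10, and for passaged minus NP-IWP2 they were 0.12, 0.11, 0.12 and 0.27. On day 10, 38 of 78 members stood in the order passaged, NP-IWP2, NP-ctrl from high to low, against 16.5% of all genes.

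Single members on day 10 show the spread. MRPL41 was at 61.8, 41.0, 119 and 118 FPKM on days 3, 5, 7 and 10 in passaged cells and 79.9, 42.4, 46.7 and 44.03 in NP-ctrl, a day 10 ratio of 2.69 (95% interval 2.38 to 3.05). All arms were between 41.0 and 42.4 FPKM on day 5, and passaged cells were the highest on days 7 and 10. MRPL34 was at 22.9 in passaged and 8.42 FPKM in NP-IWP2 cells, a ratio of 2.72 (95% interval 2.31 to 3.22). MRPS30, a large-subunit protein in spite of its name, was at 13.4 in NP-IWP2 and 6.39 FPKM in NP-ctrl cells, a ratio of 2.09 (95% interval 1.89 to 2.32). The other way, MRPL24 was at 2.38 in NP-IWP2 and 5.43 in NP-ctrl, a ratio of 0.439 (95% interval 0.319 to 0.598). MRPS2 was at 18.8 in passaged and 24.1 in NP-ctrl, a ratio of 0.779 (95% interval 0.703 to 0.864). Against NP-IWP2, passaged cells were lower in MRPL42, at 5.08 and 7.14 FPKM, and in MRPS10, at 18.1 and 22.3 FPKM.

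Set against day 2, the last day before the split, the members' median in log2(FPKM + 1) on day 10 was -0.03 in passaged, -0.30 in NP-IWP2 and -0.56 in NP-ctrl cells, with medians of all genes of 0.00, 0.05 and 0.07. In NP-ctrl, 2 members were higher and 43 lower by at least 0.5 (31.4% and 22.3% of all genes). In NP-IWP2, 11 were higher and 29 lower (31.5% and 25.1%). In passaged cells, 19 were higher and 18 lower (25.8% and 27.9%). MRPS6, of the small subunit, went against the median of the group. It was at 13.3 FPKM on day 2 and at 21.9, 22.3 and 21.2 FPKM on day 10 in passaged, NP-IWP2 and NP-ctrl cells. SLC5A3, which lies on the same strand inside the MRPS6 locus, shares its reads if counting did not separate them. MRPL1, at a mobile stalk of the large subunit, was at 9.37 FPKM on day 2 and at 18.4 on day 10 in NP-IWP2.

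Large and small subunit names had similar medians in 2 of 3 arms. In passaged cells the median fitted change was 0.34 over the 49 MRPL genes and 0.37 over the 29 MRPS genes, and in NP-ctrl it was -0.63 and -0.66. In NP-IWP2 the medians were -0.35 and 0.09, with 30 of 49 MRPL and 13 of 29 MRPS genes below 0. The difference between the name classes was not tested. The MRPS18 paralogs, whose promoters are shown above, gave these values. MRPS18B was at 18.0 on day 3 and 30.9 FPKM on day 10 in passaged cells and rose (1.03 ± 0.25, edgeR adjusted p = 0.0250). MRPS18A was at 9.34 and 13.3 FPKM (0.86 ± 0.43, adjusted p = 0.206) and MRPS18C at 2.78 and 3.59 FPKM (0.50 ± 0.31, adjusted p = 0.315). Neither MRPS18A nor MRPS18C passed.

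The genes around the mitoribosome were described by lists. In the same slope tests, 7.57% of all genes rose and 8.3% fell in passaged cells. The shares were 5.14% and 6.35% in NP-IWP2 and 2.6% and 3.6% in NP-ctrl. Of 15 mitochondrial translation factors tested, 3 rose in passaged cells and 0 fell: GFM2, which splits ribosomes after termination, GFM1, an elongation factor, and OXA1L, which inserts new proteins into the inner membrane. GFM2 was at 10.8, 15.7, 23.4 and 28.4 FPKM on days 3, 5, 7 and 10 (1.66 ± 0.25, edgeR adjusted p = 0.00415) and GFM1 at 4.12, 4.78, 5.75 and 8.67 (1.32 ± 0.21, adjusted p = 0.00481). Both rose in NP-IWP2 too, and MTIF2, the initiation factor, fell in NP-ctrl (-1.11 ± 0.22, adjusted p = 0.0244). TUFM, the elongation factor that delivers transfer RNAs, was at 111, 78.8, 104 and 97.7 FPKM in passaged cells and 98.0, 71.8, 67.3 and 52.5 in NP-ctrl. LRPPRC, which stabilizes mitochondrial messenger RNAs, was at 9.17, 9.51, 8.29 and 9.91 FPKM in passaged cells and 8.19, 7.15, 5.92 and 6.57 in NP-ctrl. Neither passed a slope test. Of 21 assembly factors, 1 fell in passaged cells, 4 fell in NP-ctrl, and NP-IWP2 had 1 that fell and 1 that rose. C1QBP, a matrix protein needed for translation there, fell in all 3 arms, from 78.8 to 29.4 FPKM in passaged cells, FASTKD2 rose in NP-IWP2 (0.94 ± 0.25, edgeR adjusted p = 0.0438), and NOA1, a GTPase of ribosome assembly, fell in NP-ctrl from 39.8 to 13.5 FPKM. Of 19 mitochondrial transfer RNA synthetases, 1 rose (RARS2) and 3 fell (SARS2, AARS2 and EARS2) in passaged cells, 1 fell in NP-IWP2 (SARS2) and 1 in NP-ctrl (TARS2). Of 5 mitoribosomal proteins with other names (DAP3, AURKAIP1, CHCHD1, PTCD3 and GADD45GIP1), DAP3 rose in passaged cells (0.93 ± 0.27, edgeR adjusted p = 0.0451) and the other 4 did not pass in any arm.

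Regulators of mitochondrial biogenesis differed between passaged and NP-ctrl cells in 2 of 14 genes, against 4.4% of all genes. PPARGC1A, the coactivator that drives biogenesis, was at 0.05, 3.52, 12.02 and 20.2 FPKM on days 3, 5, 7 and 10 in passaged cells, 0.01, 0.78, 9.51 and 13.8 in NP-IWP2 and 0.04, 0.45, 1.48 and 2.47 in NP-ctrl. Its mean difference of passaged over NP-ctrl was 2.89 ± 0.45 (log2, edgeR adjusted p = 0.00626), and ESRRA, a nuclear receptor that works with it, gave 0.86 ± 0.20 (adjusted p = 0.0365). ESRRG, of the same family, rose in passaged cells and in NP-IWP2 (edgeR adjusted p = 0.0153 and 0.0251), from 0.25 to 16.1 and from 0.08 to 7.49 FPKM. GABPA, an ETS factor, rose in the same arms (1.03 ± 0.26 and 1.19 ± 0.26, edgeR adjusted p = 0.0283 and 0.0219). The list as a whole did not share these rises. Over all 14 genes the median fitted change in passaged cells was 0.04, with 7 above 0 and 7 below. In NP-IWP2 it was 0.51 with 4 below 0, and in NP-ctrl -0.09 with 8 below 0. TFAM, which packages mitochondrial DNA, was at 18.6, 17.9, 12.4 and 14.1 FPKM in passaged cells and 11.3, 14.1, 10.2 and 9.14 in NP-ctrl and passed no slope test.

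The nuclear subunits of the respiratory chain and ATP synthase, taken as 1 list, had the same median as the mitoribosomal proteins to 2 decimals in NP-ctrl and higher medians in the other arms. These subunits (78 tested) had median fitted changes of 1.19, 0.53 and -0.63 in passaged, NP-IWP2 and NP-ctrl cells, and 10 rose in NP-IWP2 and 31 in passaged cells, with 1 that fell in NP-ctrl. The 13 messenger RNAs of the mitochondrial genome had medians of 2.88, 0.61 and -0.25 in the same order, and all 13 rose in passaged cells, as did both ribosomal RNAs of that genome, where the genome's share of counts was 1.53% on day 3 and 10.3% on day 10. Without the passaged day 3 library, which stands apart in this share, 0 of the 13 passed, with a median of 1.73. Without the passaged day 10 library 2 of 13 passed. With the genes of the mitochondrial genome left out of the total, the members' day 10 over day 3 share in passaged cells was 1.10, against 1.00. Beyond such changes of the total, the part of the mitochondrial share in the members' values was not tested. Cytosolic ribosomal proteins, matched by name (78 tested), had medians of -0.68, -1.08 and -1.45, and 15, 29 and 42 of them fell, where 8.3, 6.35 and 3.6% of all genes fell. No test was made of these lists against the members.

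**Figure D4:**
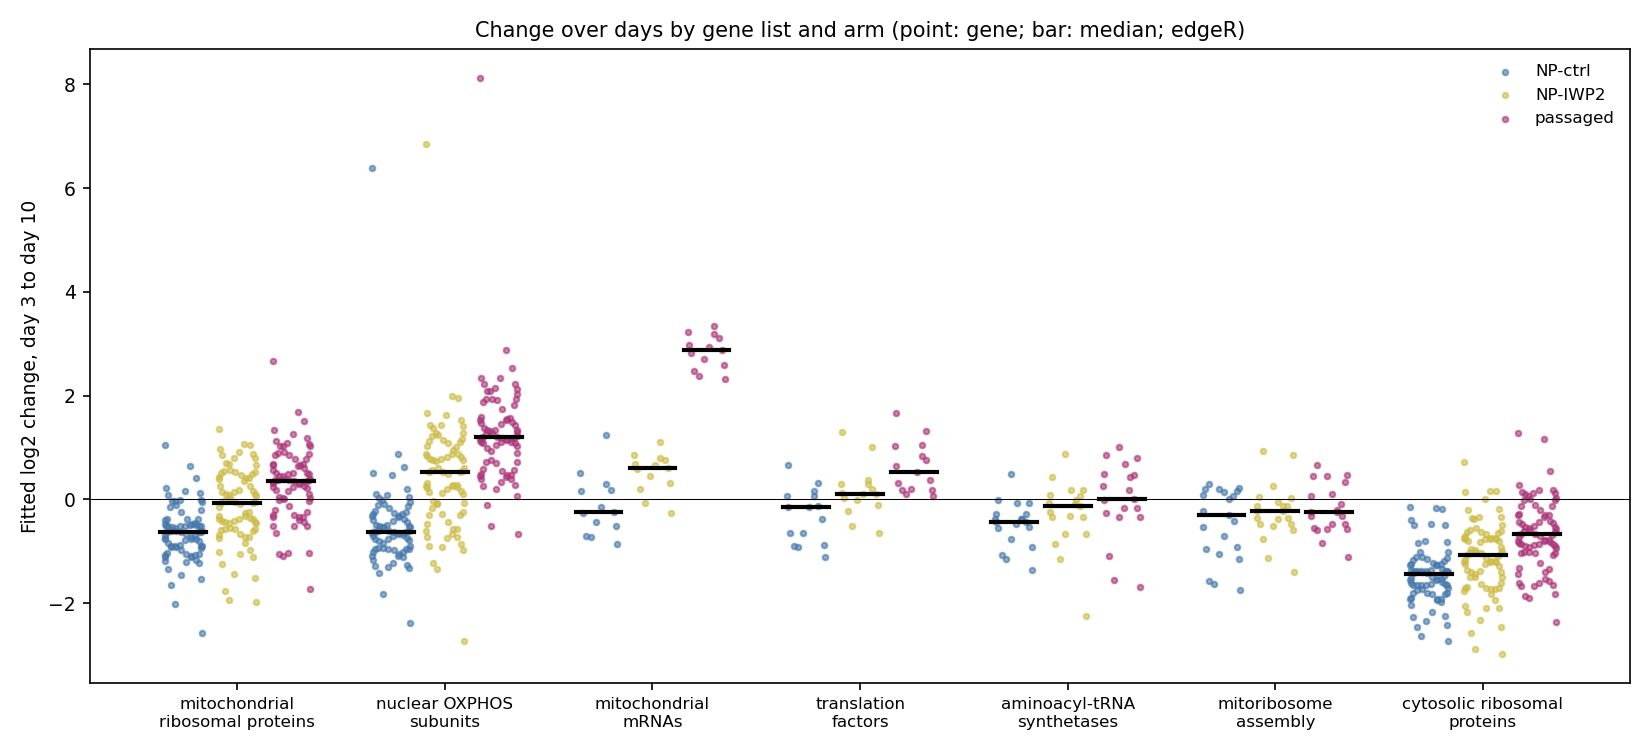
Fitted log2 change from day 3 to day 10 (vertical) of each gene in 7 lists, by arm, with a black bar at the median. The mitochondrial ribosomal proteins lie at medians of 0.36, -0.07 and -0.63 in passaged, NP-IWP2 and NP-ctrl cells, between the nuclear subunits of the respiratory chain and ATP synthase (nuclear OXPHOS subunits) and the cytosolic ribosomal proteins in passaged cells.

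Marker genes of cell types and of the cell cycle also changed over these days. The summed level of 10 cardiomyocyte genes went from 31.6 FPKM on day 3 to 4505 on day 10 in passaged cells, from 13.9 to 1794 in NP-IWP2 and from 25.7 to 589 in NP-ctrl, with 1 of the 10 at 0 counts in passaged cells on day 3 and none at 0 in any arm afterwards. The 7 mesenchyme genes went from 206 to 119 FPKM in passaged cells, from 88.4 to 1237 in NP-IWP2 and from 102 to 4530 in NP-ctrl, and the 6 endoderm and hepatic genes ended at 3.33, 869 and 2965 FPKM, with 2 of the 6 at 0 in passaged cells. The mesenchyme sum in passaged cells was highest on day 7, at 460 FPKM. There COL1A1 went from 102 to 20.6 FPKM from day 3 to day 10 and COL3A1 from 1.36 to 61.2. Of the 7 fitted changes in passaged cells, 4 were above 0 and 3 below, with a median of 0.38. The 12 cell cycle genes went from 663 to 80.3 FPKM in passaged cells, from 566 to 203 in NP-IWP2 and from 609 to 194 in NP-ctrl, and by edgeR 11 of them fell in passaged cells, 4 in NP-IWP2 and 4 in NP-ctrl. The shares of all genes that fell were 8.3, 6.35 and 3.6% in the same order. The 4 epicardial genes ended at 0.17, 76.4 and 69.0 FPKM in passaged, NP-IWP2 and NP-ctrl cells, the 6 endothelial and blood genes at 120, 105 and 95.8 FPKM, and the 6 pluripotency genes, at 1655 FPKM on day 0, at 63.6, 36.9 and 39.5 FPKM. Single genes make up most of the endothelial and the pluripotency sum in passaged cells. KDR, a receptor that early cardiac progenitors also carry, was at 119, 100.4 and 93.04 FPKM, whereas the endothelial CDH5 was lowest in passaged cells, at 0.36, 2.44 and 1.62 FPKM. TDGF1 was at 48.1, 8.55 and 0.98 FPKM, and SOX2, at 4.89, 0.08 and 0.06, was highest in passaged cells too. LIN28A, at 8.99, 18.8 and 23.3, and DPPA4, at 1.68, 9.45 and 15.1, were lowest in passaged cells. POU5F1 and NANOG were at most 0.03 in every arm. Their part in the levels of the members was not tested.

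Total counts per library were 13254723 to 20250115 counts with a median of 15269132. Of the members, 37 overlap another protein-coding gene, and whether reads were counted by strand is not stated, so their counts can hold reads of the neighbour. The table holds 80 pseudogenes named after 36 members. Of these, 37 had no count in any library, and together they held at most 0.528% of the members' counts in a library, with a highest level of 4.25 FPKM in MRPL45P2. Reads that fit a member and a copy equally are not resolved by these values.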

How the data were processed

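Bulk RNA-seq of 15 libraries was analysed from 1 table of 60605 genes with counts, FPKM and gene length, deposited by the authors. The deposited counts are raw reads per gene, and the submitters' processing notes name cutadapt 1.9.1, HISAT2 2.0.1, HTSeq 0.6.1, DESeq2 and build hg38. The FPKM values deposited by the authors are counts per kilobase of the deposited gene length and scaled to the library's total of counted reads, and recomputing them from the counts gave the same values within 0.005. The labels name a long-read library kit, whereas the tools are for short reads, and the strand setting of counting is not given in the sources used here. If reads were whole transcripts, dividing by length would distort levels between genes but not a gene's ratio of FPKM between libraries. Differences of log2(FPKM + 1), TPM values and the FPKM filter do depend on the length.

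Groups were taken from the labels, with 1 library per group. The members and lists were chosen with earlier results of these data known. Genes with FPKM of at least 1 in at least 1 library (21206) were fitted with edgeR 4.0.16 (R 4.3.3, TMM, quasi-likelihood) on the 12 libraries of days 3 to 10, either with arm and day as factors or with arm and a line over day per arm. P-values were two-sided and Benjamini-Hochberg adjusted over all genes, with a threshold of 0.05. They measure scatter about the fitted line or block, not spread between cultures. Pairs of single libraries were described by the difference of log2(FPKM + 1), with a size of 0.5 and no test. Total counts of 13254723 to 20250115 set the precision. Intervals (Wilson for shares, exact for ratios, 95%) cover counting error only. Scripts were tested on simulated data.

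Alternatives were DESeq2 1.42.0, limma 3.58.1 on log2(FPKM + 1), RLE or library totals as scaling, TPM, leaving out genes of the mitochondrial genome, other filters, day as rank, 1 or both compared arms alone, a size of 1, and leaving out each library or day. Members were named if they had the largest fitted changes past a test (4 per direction), the 3 highest or lowest means, the 3 largest ranges or the 2 largest rises or falls in a pair, and the MRPS18 paralogs were named in any case. Of the lists, 2 genes per direction past a test were named, and TFAM, TUFM, LRPPRC and PPARGC1A always. MRPL9, MRPL35, MRPL37, MRPL44, MRPL45, MRPS22, MRPS23, OXA1L, TARS2, EARS2, ESRRA, GABPA and the single marker genes were added after their values were seen where the text completes a count or a sum.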

Additional observations from a re-analysis of the deposited data

How the results depend on the processing

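No paired analysis was possible because the labels give no replicate numbers, and arms were matched by day alone, with day as a block in the mean differences. Counts of members past the test changed as follows, and the share of all genes called was counted in the main edgeR fits alone. The mean difference of passaged against NP-ctrl gave 4 with DESeq2, 1 with library totals and 3 without a filter, against 0, and 0 to 15 when a library or day was left out. The slope in NP-ctrl gave 17 with DESeq2, 17 with day as rank and 0 on that arm alone, against 9, and 0 to 10 with a library or day left out. The slope in NP-IWP2 gave 9 with DESeq2, 7 with limma, 1 without a filter and 0 on that arm alone, against 4, and 0 to 6 with a library or day left out. The slope in passaged cells gave 3 without a filter and 2 on that arm alone, against 12, and 0 to 11 with a library or day left out. The slope difference of passaged minus NP-ctrl gave 9 with DESeq2, 1 with the stricter filter and 1 with day as rank, and passaged minus NP-IWP2 gave 1 with DESeq2, against 0. The filter and the arms kept change how many genes or libraries enter, and the cause of the other shifts was not tested.

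Median differences in log2 moved with the scaling. Under TMM they were -0.54 for day 2 minus day 0. For passaged minus NP-ctrl they were -0.20, 0.56 and 0.58 on days 3, 7 and 10 under TMM, 0.16 (reversed) and 0.17 on days 3 and 10 under TPM, and 0.52 on day 10 without mitochondrial genes. For NP-IWP2 minus NP-ctrl they were -0.36 on day 3 under TMM, and -0.16 and 0.27 on days 3 and 7 under TPM. For passaged minus NP-IWP2 they were 0.21 and 0.42 on days 7 and 10 under TMM, and 0.28 and 0.075 on days 3 and 10 under TPM. With a size of 1, 3 members were lower on day 2 than on day 0. On day 10 against day 2, that size left 3 higher and 5 lower in passaged cells, 0 and 14 in NP-IWP2 and 0 and 13 in NP-ctrl, and 10 higher for passaged against NP-ctrl. On the TPM scale, 1 was higher on day 2 than day 0, 7 were higher in NP-ctrl on day 10 than on day 2, and 17 were higher and 4 lower in passaged than NP-ctrl cells on day 10.

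The day 10 over day 3 ratio of the members' share was 0.579 by summed FPKM and 0.706 by TPM in NP-ctrl. In NP-IWP2 it was 0.855 by summed FPKM, 0.805 by median FPKM, 0.919 by TPM and 0.910 without mitochondrial genes. In passaged cells it reversed to 0.983 by summed FPKM, 0.938 by median FPKM and 0.806 by TPM, and was 1.10 without mitochondrial genes. With 1 culture per group, differences between cultures were not measured, and levels near 1 FPKM, as in MRPL53, are limited by depth.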
